A study of Bos taurus with 6 samples.

Results

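The genes described here are those of the bovine count tables whose Ensembl identifier (ENSBTAG) carries a high number, from 48302 up to 55316, a range that was used for genes added to the bovine annotation after the first sets of gene models. They number 7004 of the 29154 rows listed in each library, or 24.0%, after ENSBTAG00000048390 (NCBP2AS2) and ENSBTAG00000051090 (KLF13) were set aside by the same rule. They are called recent-identifier genes below, and the 20601 genes with an ENSBTAG number up to 48297 are called older-identifier genes. A further 1547 rows have no Ensembl identifier and enter only the totals. The class was set by the number of an identifier and by the removal of those genes by name, and the rule uses no measured value, though it was proposed with earlier results of these data known.

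The RNA came from MAC-T cells, an immortalised bovine mammary epithelial cell line, grown as monolayers. Cells were given 100 nM of an inhibitor by transfection, either the miR-29c inhibitor or the one named NC inhibitor, a control oligonucleotide with no intended target, and were collected after 48 h. Of the 3 replicates of each group that the labels describe, replicates 1 and 2 were analysed, and replicate 3 was not analysed here. The replicates of a group come from a single line, and a p-value below rests on the spread between 2 replicates of each group. In the main edgeR fit this spread was pooled over genes of similar level. The spread of a single gene had no weight of its own there, so that a p-value of that fit does not measure it. The values are counts of sequencing reads per gene, which are called counts, or CPM, which are counts scaled to a common library total of 1e+06. Positive log2 fold changes stand for more RNA after the miR-29c inhibitor.

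An Ensembl identifier is given once to a gene and is kept in later annotation releases, so that a high number marks a gene model that entered the bovine annotation late. The sources name the build as UMD3.1, while numbers this high are known from annotation of later bovine assemblies, so that the annotation behind these counts is uncertain. Late additions usually include long non-coding RNAs, small RNAs, copies of multi-gene families, and coding genes that earlier assemblies had broken or missed. miR-29c belongs to the miR-29 family, small RNAs that pair by their seed with messenger RNAs, often of collagens and DNA methylation enzymes, and lower their level. An inhibitor occupies the miRNA, so that its targets are expected to rise, and a target need not be among the genes described here.

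Only 8 of the 7004 genes could be given a name, from the differential expression list that accompanies the study, since none of the identifiers was found in the RefSeq gene table used here. Epithelial markers such as cytokeratin 18, and gene lists such as ribosomal proteins or histones, could therefore not be looked up, and the labelled cell type was not checked on these counts. Gene types were not known either, apart from the named genes. Identifiers that could not be named are given for a few genes only.

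Among the named genes, SEM1 encodes a small acidic subunit of the 26S proteasome, and GNAS encodes the stimulatory G protein alpha subunit that couples receptors to adenylate cyclase. The qRT-PCR primers that the study designed for these genes are shown because they are the only sequences tied to recent-identifier genes among the materials used here. Each is given 5′ to 3′.
SEM1 forward: ctgcggtgaggaagaacga
SEM1 reverse: tcatctaaaccagcccagtc
GNAS forward: tgccgtgtcctgacttct
GNAS reverse: ggcggttggtctggttgt
The primers are 18 to 20 bases long, and no capitals are used because no part of a primer was singled out. Which of the loci described as SEM1 these primers amplify was not tested. The paper reports that qRT-PCR of genes drawn from its list gave trends similar to those of RNA-seq, and its values were not compared here.

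The 4 libraries were close in depth. Their counts summed to between 14479278 and 16213226, and TMM factors, which correct library totals for composition, lay between 0.992 and 1.01. A gene without a count in any library could have had a mean of up to 0.0492 CPM, the level that 3 counts in the 60923037 counts of all libraries would give. This limit covers counting error only.

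Most recent-identifier genes were not detected in MAC-T cells. No count was found in any library for 3753 of them, or 53.6%, against 5051 older-identifier genes, or 24.5%. At least 1 count was found for 2534 and 2590 recent-identifier genes in NC inhibitor replicates 1 and 2, and for 2529 and 2552 in miR-29c inhibitor replicates 1 and 2. These are 36.1 to 37.0% of the genes in each library, and the libraries of both groups overlapped. Of the older-identifier genes, 68.8 to 69.5% had a count in each library.

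Detection in every library was reached by 1987 recent-identifier genes (28.4%) and by 13114 older-identifier genes (63.7%). In all, 1308 recent-identifier genes (18.7%) had 1 to 9 counts over all 4 libraries together, where the share among older-identifier genes was 12.3%. At least 10 counts in every library were found for 1113 recent-identifier genes (15.9%) and 11478 older-identifier genes (55.7%). Once the mean level was matched, the shares were close. Of the genes with any count, 61.1% of the recent-identifier genes were found in every library, and 60.8% of the older-identifier genes when these were weighted to the same mean CPM.

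Their abundance was low as well. Among genes with any count, the median total over the 4 libraries was 18 counts for recent-identifier genes and 955 for older-identifier genes, and the median mean level was 0.299 and 15.7 CPM. A mean of at least 1 CPM was reached by 1081 recent-identifier genes (15.4%), a mean of at least 16 CPM by 303 (4.33%) and a mean of at least 100 CPM by 67 (0.957%). The same levels were reached by 55.4%, 37.5% and 9.88% of the older-identifier genes.

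**Figure D1:**
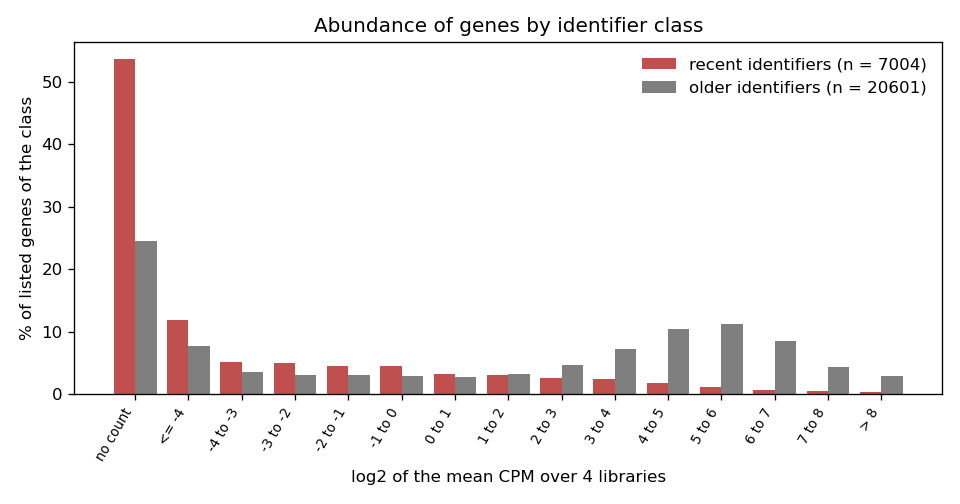
Percentage of the listed genes of each class (vertical axis) in bins of the log2 of the mean CPM over the 4 libraries (horizontal axis), with genes without a count in the first bars. Red bars stand for recent-identifier genes and grey bars for older-identifier genes. The first red bar holds 53.6% of the recent-identifier genes, and the grey bars have a second rise at the levels above 16 CPM, where 37.5% of the older-identifier genes lie against 4.33% of the recent ones.

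Low detection was spread evenly over the range of numbers. In 8 bands of numbers, from 48302 up to 55316, the share of genes with any count lay between 44.7% and 48.0%, and the share with at least 10 counts in every library between 13.6% and 17.3%. The limit itself separated genes of mixed levels. Of the 5 genes just above it, ENSBTAG00000048302 and one more had no count, and the others had 2, 630 and 3777 counts over the 4 libraries. Of the 5 genes just below it, 4 had no count, ENSBTAG00000048297 among them, and the other had 763.

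The few abundant genes held most of the reads. Recent-identifier genes took 2.86% and 2.88% of all counts of NC inhibitor replicates 1 and 2, and 2.87% and 2.88% in miR-29c inhibitor replicates 1 and 2. The means were 2.867% ± 0.0153 and 2.874% ± 0.00551 (SD, n = 2 libraries each). The difference of 0.00679 percentage points was smaller than the spread between the NC inhibitor libraries, with p = 1 in an exact two-sided permutation test over libraries, in which 2 libraries against 2 cannot give a p below 0.333. Without NC inhibitor replicate 1 the difference was -0.00406 percentage points. Without the 10 recent-identifier genes with the most counts, the share was 2.32% and 2.33% with the NC inhibitor, and 2.35% and 2.38% with the miR-29c inhibitor. The difference was then 0.0428 percentage points, and the groups did not overlap, with p = 0.333 in the exact permutation test, the smallest it can give with 2 libraries against 2.

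Within that part, the 10 genes with the most counts held 18.3% and the 100 genes with the most counts held 62.8%. The corresponding shares among older-identifier genes were 7.32% and 23.6%, in a class with more genes. ENSBTAG00000053735 was the most abundant recent-identifier gene, at rank 129 of all genes. It stood at 788 and 898 CPM in the NC inhibitor libraries and at 831 and 743 CPM in the miR-29c inhibitor libraries, so that the groups overlapped. The change of -0.10 on the log2 scale did not pass the quasi-likelihood test of edgeR (adjusted p = 0.330).

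Next in abundance stood a pair of genes that fell. ENSBTAG00000051704 was at 747 and 723 CPM in the NC inhibitor libraries and at 667 and 604 CPM in the miR-29c inhibitor libraries. ENSBTAG00000051191 was at 653 and 676 CPM in the NC inhibitor libraries and at 557 and 475 CPM in the miR-29c inhibitor libraries. Both were lower in every miR-29c inhibitor library than in any NC inhibitor library, and in both replicate 2 of the miR-29c inhibitor group was the lowest. For ENSBTAG00000051704 the log2 fold change of -0.21 (SE 0.04) gave an adjusted p of 0.000145 in edgeR, of 0.0733 in DESeq2, and of 0.576 in edgeR without miR-29c inhibitor replicate 2. For ENSBTAG00000051191 it was -0.36 (SE 0.04), with an adjusted p of 3.91e-14 from edgeR, which stayed at 0.00364 or below without any 1 library and was 0.322 from DESeq2. The other 5 genes among the 8 most abundant had means of 416 to 530 CPM, and none of these 5 was called by edgeR. The smallest unadjusted p among the 5 was 0.0368, again from edgeR.

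The effect of the inhibitor was then compared over all genes. Of the 20300 genes counted at least once, 3251 were recent-identifier genes, which are 46.4% of the class. By edgeR's quasi-likelihood test at an adjusted p below 0.05, 24 recent-identifier genes rose in the miR-29c inhibitor group and 7 fell. These are 0.738% and 0.215% of those tested. Over all genes tested 0.901% rose and 0.562% fell, and among older-identifier genes 0.939% rose and 0.643% fell. The CPM values of the groups did not overlap for 22 of the 24 higher genes and for all 7 lower genes, where calls without overlap made up 0.882% and 0.463% of all genes tested.

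Among the called recent-identifier genes, the increases reached further than the decreases. Of the higher genes 7 rose at least 2-fold, and of the lower genes 0 fell as far. The largest of these increases came almost all from 1 library, and not all of the 7 were called by DESeq2 or the bias-adjusted fit. Older-identifier genes called had log2 fold changes up to 2.22 and down to -1.71. The median log2 fold change of the called genes was 0.67 for the higher and -0.46 for the lower recent-identifier genes, and 0.37 and -0.29 for the older-identifier genes called. A fold change has to be larger to be called at a low level, and the called genes of the classes were not matched in level for these medians.

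How far calls leaned on single libraries was counted here for recent-identifier genes only, and is not shown to be particular to this class. The calls leaned on miR-29c inhibitor replicate 2. In 19 of the 24 higher genes and 7 of the 7 lower genes it lay further from the NC inhibitor libraries than replicate 1 did. Without it, 10 of the 24 higher genes and 1 of the 7 lower genes kept their call. Without NC inhibitor replicate 1, 15 and 2 did. Leaving out NC inhibitor replicate 2 kept 19 and 7, and leaving out miR-29c inhibitor replicate 1 kept 21 and 6. In all 4 of these fits 10 higher genes and 1 lower gene, ENSBTAG00000051191, kept their call.

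Other tests gave fewer calls. DESeq2 gave an adjusted p to 1963 recent-identifier genes and called 10 higher (0.509%) and 0 lower. Of all genes with an adjusted p, it called 0.269% higher and 0.0122% lower, and of older-identifier genes 0.23% and 0.0153%. At an unadjusted p below 0.05, DESeq2 had 30 higher (0.923%) and 11 lower (0.338%), where 1.57% and 0.911% of all genes had such a p. The bias-adjusted quasi-likelihood fit of edgeR, which lets the spread differ between genes, called 10 higher (0.308%) and 0 lower. Of all genes it called 0.158% higher and 0.00985% lower, and of older-identifier genes 0.116% and 0.0129%. At an unadjusted p below 0.05 this fit had 95 higher (2.92%) and 75 lower (2.31%), where all genes had 3.94% and 3.86%. The default fit had 105 (3.23%) and 68 (2.09%), where all genes had 4.36% and 4.53%. These shares of recent-identifier genes at an unadjusted p all lay below those of all genes tested. The share called higher at an adjusted p lay above that of all genes by DESeq2 and the bias-adjusted fit, and below it by the default fit. The 10 genes that rose by all 3 fits were the same 10 that kept their call when any 1 library was left out. Their means ran from 2.76 to 269 CPM and their increases from 1.32-fold to 3.70-fold.

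At the threshold that the methods of the study give, a fold change of more than 1 in size on the log2 scale at an unadjusted P below 0.05, edgeR called 26 recent-identifier genes higher (0.8%) and 10 lower (0.308%). Over all genes tested 0.429% were called higher and 0.345% lower, and among older-identifier genes 0.264% and 0.322%. These counts moved with the filter on low counts, to 5 higher and 0 lower among genes with at least 10 counts in every library.

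Since so many recent-identifier genes had few counts, they were also compared with older-identifier genes at the same mean CPM. Older-identifier genes were weighted so that each 2-fold step of mean CPM held the same share of genes in both classes. Genes of a class are not replicates, and these shares are descriptions without a test. Over all genes tested, 0.738% of recent-identifier genes rose against 0.325% of the weighted older-identifier genes, and 0.215% fell against 0.156%. At a mean of at least 1 CPM the shares were 2.04% against 0.978% for the higher genes and 0.648% against 0.469% for the lower genes. At a mean of at least 10 CPM they were 3.35% against 1.30% and 1.20% against 0.890%.

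The shares lay further apart among the 303 recent-identifier genes with a mean of at least 16 CPM, a limit that was not planned beforehand. Of these, 13 rose (4.29%) and 5 fell (1.65%), where the weighted shares of older-identifier genes were 1.33% and 0.983%. With DESeq2 the share that rose was 2.97% against 0.303%, and with the bias-adjusted fit 2.97% against 0.174%, and no recent-identifier gene at this level fell by either. When 1 library at a time was left out, the share that rose stayed between 3.30% and 4.95% for recent-identifier genes and between 0.265% and 1.32% for older-identifier genes. The share that fell was less stable, at 0.330% against 0.1004% without miR-29c inhibitor replicate 2.

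**Figure D2:**
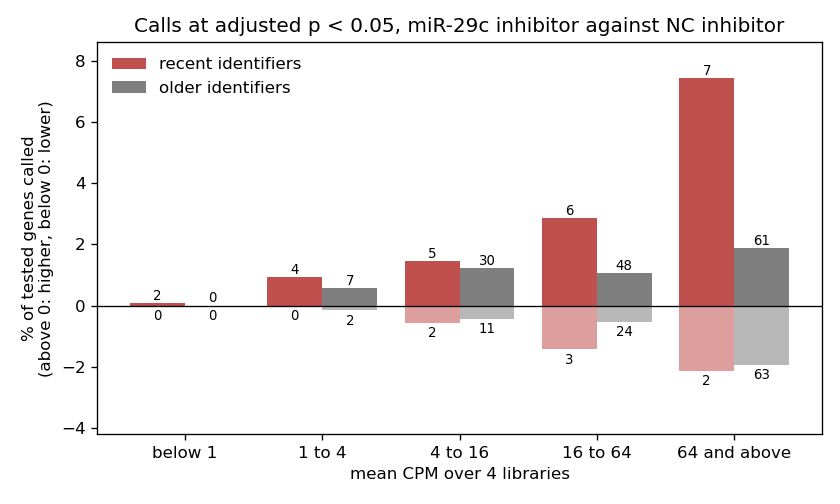
Percentage of the tested genes of each class called at an adjusted p below 0.05 by edgeR's quasi-likelihood test (vertical axis), higher genes above 0 and lower genes below 0, in bins of the mean CPM over the 4 libraries (horizontal axis). Red bars stand for recent-identifier genes, grey bars for older-identifier genes, and the figure at each bar is the number of genes called. At a mean of 64 CPM and above, 7 of 94 recent-identifier genes (7.45%) and 61 of 3259 older-identifier genes (1.87%) were called higher.

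By level, 2 of 2170 recent-identifier genes below 1 CPM rose, and 0 of 4133 older-identifier genes did. From 4 to 16 CPM the shares that rose were close, at 1.45% of 346 and 1.23% of 2443 genes. From 16 to 64 CPM they were 2.87% of 209 and 1.07% of 4470 genes, and at 64 CPM and above 7.45% of 94 and 1.87% of 3259. The share that fell at 64 CPM and above was 2.13%, or 2 genes, and 1.93%. Counts of 5 to 7 genes stand behind each of these shares of recent-identifier genes that rose from 4 CPM upward.

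Below a mean of 0.5 CPM, where 1858 of the 3251 tested recent-identifier genes lay, 0 passed an adjusted p of 0.05 by any of the 3 fits. At an unadjusted p below 0.05 there were, of these 1858 genes, 17 by edgeR, 4 by DESeq2 and 45 by the bias-adjusted fit. No such count was made for all genes or older-identifier genes at this level, so that these numbers are not a result about the class. No difference was detected for these genes at an adjusted p below 0.05.

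As a class, recent-identifier genes showed no shift beyond the spread between replicates. The median log2 fold change at a mean of at least 1 CPM was -0.0039, and -0.0064 for the weighted older-identifier genes. The SD of such a median between replicate libraries was 0.0109 for the recent-identifier genes. At 16 CPM and above the medians were 0.0054 and 0.0003. The outer part of the distribution was wider, since the 90th percentile of the absolute log2 fold change at 16 CPM and above was 0.230 for recent-identifier genes and 0.183 for the weighted older-identifier genes.

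The spread between replicates was close in both classes. The median absolute log2 ratio of CPM + 0.5 between replicates of a group, averaged over both groups for each gene, at a mean of at least 1 CPM, was 0.162 for recent-identifier genes and 0.164 for the weighted older-identifier genes. At 16 CPM and above the medians were 0.0894 and 0.0822, and the 90th percentiles were 0.179 and 0.175. Replicates differed by more than counting error, so that no library was a copy of another. The chi-square statistic per degree of freedom over recent-identifier genes was 2.12 (NC inhibitor) and 2.11 (miR-29c inhibitor). Over older-identifier genes, which were not matched in level here, it was 3.12 and 2.67.

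**Figure D3:**
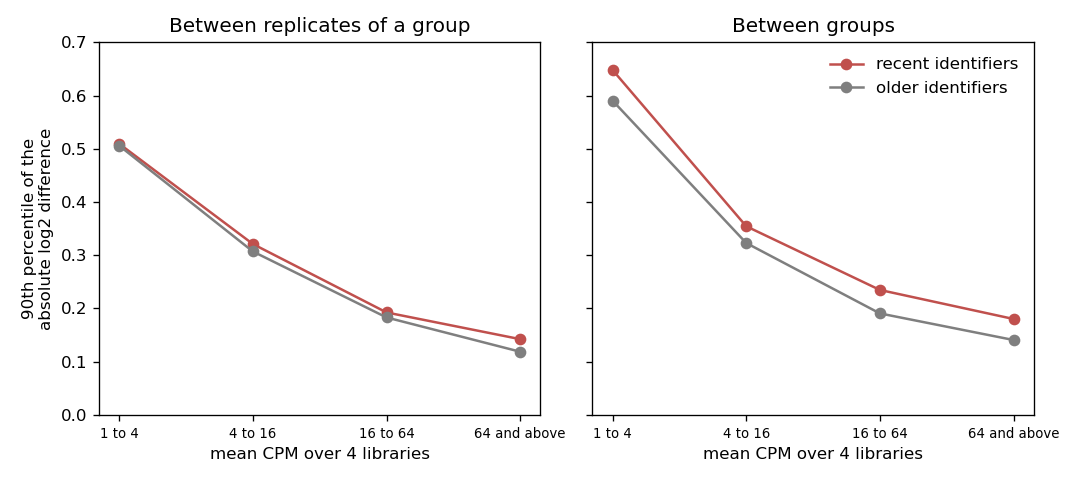
The 90th percentile of the absolute log2 difference (vertical axis) between replicates of a group, averaged over both groups, on the left, and between groups, on the right, in bins of the mean CPM over the 4 libraries (horizontal axis). Red points stand for recent-identifier genes and grey points for older-identifier genes, not weighted within a bin. At 16 to 64 CPM the points lie at 0.192 and 0.183 between replicates and at 0.235 and 0.191 between groups.

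A few genes had replicates far apart. At a mean of at least 10 CPM, 6 of 418 recent-identifier genes (1.44%) and 28 of 8813 older-identifier genes (0.318%, or 0.565% when weighted to the same CPM) had replicates that differed by more than 0.5 on the log2 scale in at least 1 group. ENSBTAG00000050046 was the widest, with 100 and 339 counts with the NC inhibitor and 352 and 192 with the miR-29c inhibitor. The groups overlapped and the adjusted p from edgeR was 0.130. The gene that follows had 126 and 226 counts with the NC inhibitor and 176 and 332 with the miR-29c inhibitor. It was called higher by edgeR although the groups overlapped, with an adjusted p of 0.00304, while that from DESeq2 rounded to 1. The third, with 473 and 318 counts against 273 and 240, was called lower by edgeR with an adjusted p of 1.9e-05, while that from DESeq2 rounded to 1.

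One call rested on a single library. A gene without a name had 11 and 0 counts with the NC inhibitor and 3 and 86 with the miR-29c inhibitor. It had the largest log2 fold change of the called genes, 2.99, with adjusted p values of 1.26e-09 from edgeR and 0.588 from its bias-adjusted fit, while that from DESeq2 rounded to 1. Without miR-29c inhibitor replicate 2 its log2 fold change was -0.78. Together with the preceding gene of overlapping groups, it makes up the 2 higher calls in which the groups overlapped.

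The higher genes with a name were SEM1, GNAS and adrenomedullin 5. SEM1 had 52.5 and 45.0 CPM in the NC inhibitor libraries and 115 and 120 CPM in the miR-29c inhibitor libraries. Its groups stood far apart, at a log2 fold change of 1.28 (SE 0.07), with an adjusted p of 1.99e-73 from edgeR, 2.28e-34 from DESeq2 and 4.52e-05 from the bias-adjusted fit. SEM1 is a case where the recent and the older identifiers meet, since an older-identifier gene, ENSBTAG00000034496, carries the same protein name. That locus stood at 82.2 and 95.5 CPM in the NC inhibitor libraries and at 36.5 and 39.7 CPM in the miR-29c inhibitor libraries, with a log2 fold change of -1.22 (SE 0.07). Reads shared by near-identical loci can be split in counting, and the part of this in either change was not tested.

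GNAS had 38 and 63 counts with the NC inhibitor and 85 and 102 with the miR-29c inhibitor. All miR-29c inhibitor values were above the NC inhibitor values, and the log2 fold change was 0.92 (SE 0.21). The call depended on the test and the libraries. The adjusted p was 0.0015 from edgeR, 0.804 from DESeq2 and 0.276 from the bias-adjusted fit, and in edgeR 0.254 when NC inhibitor replicate 1 was left out and 0.163 when miR-29c inhibitor replicate 2 was.

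Adrenomedullin 5, a putative member of the adrenomedullin peptide hormones, had 1 and 5 counts with the NC inhibitor and 19 and 16 with the miR-29c inhibitor. The groups did not overlap, and the log2 fold change was 2.54 (SE 0.68). The adjusted p was 0.0187 from edgeR and 0.915 from DESeq2. In edgeR it lost the call without NC inhibitor replicate 1, at 0.400, and without either of the miR-29c inhibitor libraries, at 0.215 and 0.158.

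Further higher genes had no name. ENSBTAG00000050269 had 17 and 19 counts with the NC inhibitor and 67 and 64 with the miR-29c inhibitor. Its replicates were close and the log2 fold change was 1.89 (SE 0.28), with an adjusted p of 1.91e-08 from edgeR, 0.0165 from DESeq2 and 0.0205 from the bias-adjusted fit. ENSBTAG00000048562 had 2 and 5 counts with the NC inhibitor and 20 and 24 with the miR-29c inhibitor, a log2 fold change of 2.64 (SE 0.60) with adjusted p values of 0.00185 (edgeR) and 0.496 (DESeq2). One more rose from 160 and 164 counts to 375 and 391 counts, with a log2 fold change of 1.27 (SE 0.12) and an adjusted p of 8.04e-22 from edgeR and 2.02e-09 from DESeq2.

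**Figure D4:**
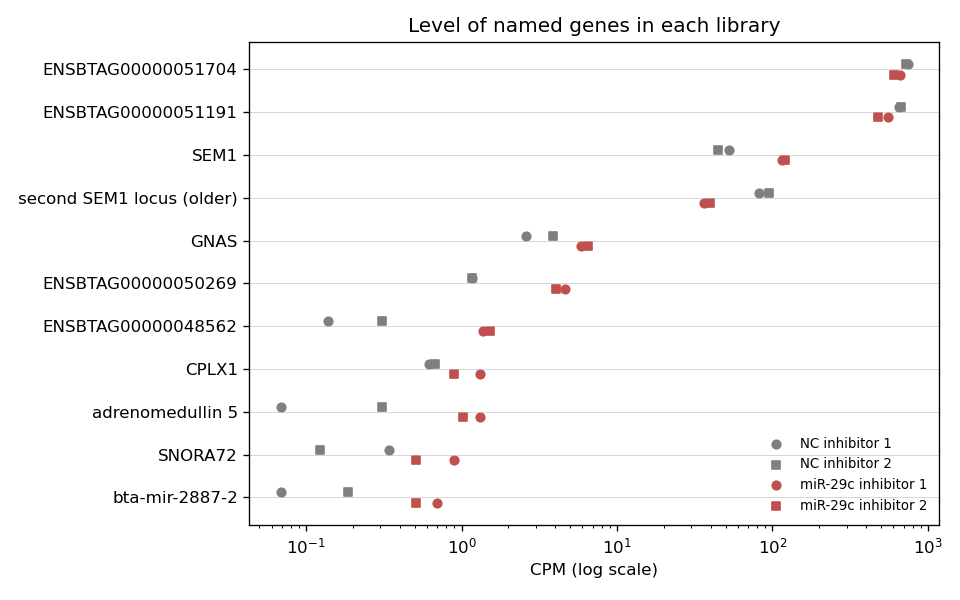
CPM in each library on a log axis (horizontal axis) for named genes and for the unnamed genes given by identifier (vertical axis). Grey marks are the NC inhibitor libraries and red marks the miR-29c inhibitor libraries, with circles for replicate 1 and squares for replicate 2. SEM1 lies at 45.0 and 52.5 CPM in grey and at 115 and 120 CPM in red, and its older-identifier locus lies the other way round, at 82.2 and 95.5 CPM in grey and at 36.5 and 39.7 CPM in red.

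Abundant genes with no name also rose, by less. One stood at 127 and 118 CPM in the NC inhibitor libraries and at 209 and 217 CPM in the miR-29c inhibitor libraries, with a log2 fold change of 0.80 (SE 0.06) and an adjusted p of 4.12e-43 (edgeR) and 7.48e-25 from DESeq2. Another stood at 145 and 148 CPM and at 203 and 216 CPM, a log2 fold change of 0.51 (SE 0.05) with an adjusted p of 1.76e-10 from DESeq2. The last of these stood at 238 and 222 CPM and at 300 and 317 CPM, a log2 fold change of 0.42 (SE 0.05) with an adjusted p of 5.79e-08 from DESeq2. In all 3 the replicates of a group lay closer to each other than to the other group. The remaining genes that rose by all 3 fits, 4 in number, had log2 fold changes between 0.40 and 0.59 and NC inhibitor means between 38.8 and 61.0 CPM.

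**Figure D5:**
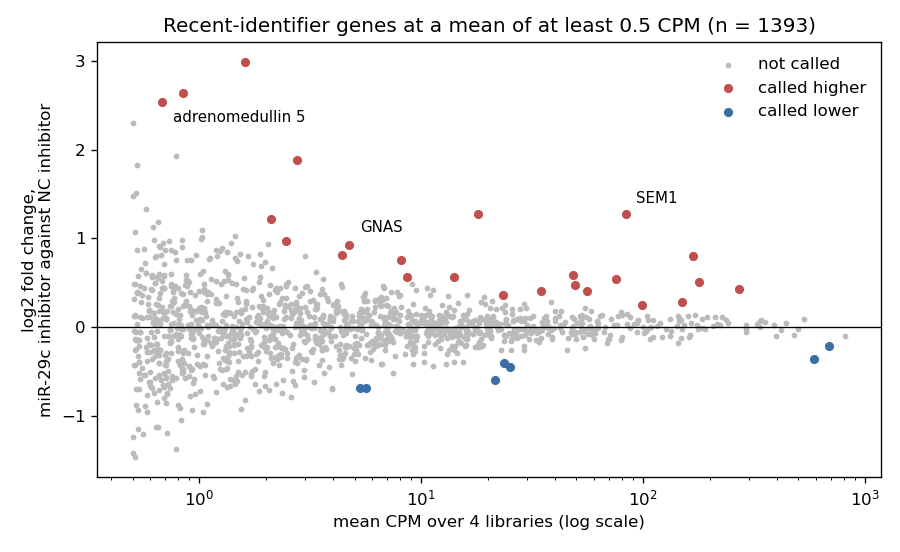
Log2 fold change of the miR-29c inhibitor group against the NC inhibitor group (vertical axis) by the mean CPM over the 4 libraries on a log axis (horizontal axis), for recent-identifier genes with a mean of at least 0.5 CPM. Red points are genes called higher and blue points genes called lower by edgeR's quasi-likelihood test at an adjusted p below 0.05, and grey points are genes not called. The point at 2.99 is the gene whose counts come almost all from 1 library, SEM1 lies at 1.28, and the blue points reach down to -0.69.

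The list of differentially expressed genes that accompanies the study holds 15 recent-identifier genes, 12 of them higher and 3 lower in the libraries analysed. The study made the list with DESeq2 on 3 replicates of each group, the libraries analysed here among them. Its direction is therefore not independent evidence, and the tests here used fewer libraries. By edgeR, 6 of the 12 higher genes and 0 of the 3 lower genes had an adjusted p below 0.05, and 9 and 1 passed the unadjusted threshold with the fold limit. No such count was made for the rest of the list, so that these numbers are not a result about the class. The other 25 of the 31 called genes were not on the list, the abundant unnamed genes above among them.

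Among the named genes of the list that did not pass the adjusted test, CPLX1, a complexin that binds the SNARE complex of vesicle fusion, had 9 and 11 counts with the NC inhibitor and 19 and 14 with the miR-29c inhibitor. TRNP1, a nuclear protein known from the developing cortex, had 1 and 0 counts and 1 and 7 counts, too few for a fold. SNORA72, a small nucleolar RNA that guides pseudouridylation, had 5 and 2 counts and 13 and 8 counts. The miRNA gene bta-mir-2887-2 had 1 and 3 counts and 10 and 8 counts. The miRNA gene bta-mir-12010 had 1 and 5 counts and 0 in both libraries with the miR-29c inhibitor. Set at 3 counts over that group, it would be 1.96-fold lower, with the counting error of the NC inhibitor counts left out. The adjusted p from edgeR was between 0.414 and 0.778 for these 5 genes. The libraries were made with a kit for messenger RNA, and from which transcripts the reads on these small RNA genes came was not tested.

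Genes found in a single group were not called. More than 3 counts in 1 group and none in the other were found for 27 recent-identifier genes of the miR-29c inhibitor group and 35 of the NC inhibitor group. These are 0.831% and 1.08% of the recent-identifier genes tested, where the shares were 0.429% and 0.557% of all genes tested and 0.334% and 0.431% of the older-identifier genes, which were not matched in level here. Of these 62 genes 0 had an adjusted p below 0.05 by edgeR, DESeq2 or the bias-adjusted fit, and 4, 3 and 14 had an unadjusted p below 0.05. The highest sum was 12 counts in the miR-29c inhibitor group, and the highest sum in the NC inhibitor group was 11 counts. Against 3 counts over the NC inhibitor group, the 12 counts would be 4.09-fold higher, with their own counting error left out. The smallest adjusted p among the 62 genes was 0.165 from edgeR.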

How the data were processed

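RNA-seq was analysed for 4 libraries of MAC-T cells, 2 transfected with the NC inhibitor and 2 with the miR-29c inhibitor. Groups and replicates were taken from the labels. Read alignment by the authors used HISAT2 and a bovine genome build that the submitters' processing notes name as UMD3.1, and the values they deposited are whole-number counts for each gene that were not normalized. The methods of the study point to an archived Ensembl site for UMD3.1, which the identifier numbers up to 55316 leave in doubt, and the strand setting is not given. The members and lists were chosen with earlier results of these data known.

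The counts were tested in R 4.3.3 by edgeR 4.0.16 (limma 3.58.1) with TMM scaling, a group term and the quasi-likelihood test over genes counted at least once. The Benjamini-Hochberg method was used over all 20300 genes for adjusted p values. The common biological coefficient of variation was 0.0421. An unadjusted P with a log2 limit of 1 was the second threshold. CPM used the TMM-scaled library sizes. Older-identifier genes were weighted by bins of 1 log2 unit of mean CPM. The script was tested on simulated data.

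Genes were named as follows: up to 15 called genes in each direction without overlap between groups, genes of the study list, the 8 most abundant, the 3 with the widest replicates at 10 CPM or more, and the pair at either side of the identifier limit. Without a table of names, only 2 called identifiers in each direction were printed for unnamed genes.

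Alternatives were DESeq2 1.42.0 (its missing adjusted p values, for 3936 genes, were left missing), its size factors in edgeR, library totals, a minimum of 10 counts in each library, filterByExpr, a bias-adjusted fit, a replicate block, each library left out, in which a group reduced to 1 library borrows the spread of the other, and identifiers above 50000. The limit of 16 CPM for the share that rose was not planned, and its settings were chosen after seeing the data. The replicate numbers were not shown to pair libraries.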

Additional observations from a re-analysis of the deposited data

How the results depend on the processing

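Of the values of single genes under all alternatives, 390 kept their direction and their side of the threshold, 99 lost the threshold, 4 gained it and 5 turned. Of those that turned, 1 belonged to a called gene, that with 86 counts in miR-29c inhibitor replicate 2, which lay between -0.78 without that library and 8.50 without NC inhibitor replicate 1, where the NC inhibitor group had no count and the value rests on the prior count. The others belonged to genes not called. ENSBTAG00000050046 was at -0.195 when NC inhibitor replicate 1 was left out and at -0.189 when miR-29c inhibitor replicate 1 was, and at up to 1.40 with the other libraries left out. For a pair of the most abundant genes, the values with each library left out lay between -0.0549 and 0.0193 and between -0.0722 and 0.0138, above 0 without NC inhibitor replicate 1. The count of higher genes at the adjusted p was 11 to 24 with each library left out, and that of lower genes 1 to 9. At the unadjusted threshold these ranges were 29 to 35 and 13 to 21. DESeq2 gave 10 higher and 0 lower genes at the adjusted p, and 11 and 1 at the unadjusted threshold. The bias-adjusted fit gave 10 and 0 at the adjusted p, and 34 higher and 29 lower genes at the unadjusted threshold. The filterByExpr filter gave 13 higher and 4 lower genes at the unadjusted threshold, and at least 10 counts in every library gave 5 and 0. Numbers above 50000 gave 16 and 6, with fewer genes in the class. For the counts at the unadjusted threshold under these settings, no share over all genes was taken. With the replicate block, 25 higher and 7 lower genes were called at the adjusted p, and 21 higher and 6 lower genes at the unadjusted threshold. The correlation of deviations between libraries with the same number was 0.0778 over 9543 genes and -0.0148 over 418 recent-identifier genes, so that the numbers were not shown to pair the libraries.

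The difference in the share of counts was -0.000689 percentage points with numbers above 50000, and lay between -0.00406 and 0.0176 with each library left out. It was 0.0428 without the 10 genes with the most counts. The median log2 fold change lay between -0.000715 and 0.0125 with each library left out. It was -0.0055 with numbers above 50000 and -0.0132 with library totals only. Genes with at least 10 counts in every library numbered 1113. The median ratio between replicates was 0.175 with CPM + 0.1, 0.103 at 10 CPM or more, 0.141 in the NC inhibitor group alone and 0.148 in the miR-29c inhibitor group alone. Depth limits the result, since 1858 of the 3251 genes tested lay below 0.5 CPM.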
